A study of Mus musculus with 12 samples.

Results

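The comparison covers the cortex of old against young mice, with arrays at 17 and 22 months (the later ages) set against arrays at 1.5 and 4 months (the earlier ages). A gene was kept when its log2 signal on both later arrays lay on the same side of both earlier arrays and when the scanner software marked it as well above background on both arrays of the brighter side. By this rule 5526 of 20868 genes measured (26.5%) were kept, of which 3119 (14.9% of all genes) were higher and 2407 (11.5%) were lower at the later ages. Without the genes of a list of choroid plexus genes, 3110 higher genes and the same 2407 lower genes were left.

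The study ranked animal models of Alzheimer's disease (AD) by their brain gene expression, and the aged mice were 1 of these models. All 4 arrays held RNA of untreated male C57BL/6 mice from a specific pathogen-free facility, which carried no transgene, were housed individually, and were fasted overnight before tissue was taken under isoflurane. The tissue is labelled prefrontal cortex. Each array held equal amounts of RNA from 3 animals of 1 age, hybridized to 1 one-colour Agilent mouse array, so each age is 1 sample and the spread between animals is not known. An array of mice at 9 months was not analysed here. For reference, 8 hippocampus arrays of the same series are used, with 1 pool each. They held the NCSTN transgenic, MAPT overexpression, and 5xFAD mice, labelled C57BL/6, and ICR mice that received amyloid-β at 5 µM or 10 µM or streptozotocin at 2.5 mg/kg or at 3 mg/kg into the ventricles, or scopolamine at 1 mg/kg into the abdomen. They differ from the cortex arrays in region, age, treatment, and in part strain. No test was run, because the rule already used this contrast and arrays of different ages are not replicates of 1 group. No p-value is given, and every value below is a description of these arrays. In pooled tissue, fewer cells of a type and less RNA per cell cannot be told apart.

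The cerebral cortex holds projection neurons and interneurons, astrocytes, oligodendrocytes that form myelin, microglia, and the cells of its vessels and meninges. Aged brain is known for more activated microglia, more complement and interferon-stimulated transcripts, and fewer immature cells, whereas most neuronal transcripts persist. The choroid plexus secretes cerebrospinal fluid inside the ventricles and is not a part of the cortex, so its transcripts mark tissue other than cortex in a dissection.

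Defining genes of the cortex were present on all 4 arrays, as the tissue label says. Cux2, a transcription factor of upper-layer cortical neurons, lay between 7.78 and 8.82 (log2 normalized signal) on the 4 cortex arrays and between 6.30 and 7.28 on 8 hippocampus arrays of the same series. Prox1, a factor of hippocampal granule cells, lay between 4.82 and 5.59 in cortex and between 7.60 and 8.22 in hippocampus. The striatal dopamine receptor gene Drd2 was uneven among the cortex arrays, at 3.16, 6.94, 4.23, and 5.83 at 1.5, 4, 17, and 22 months, which does not follow the ages.

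The 4 arrays did not fall into an older and a younger pair. Over all genes the Pearson correlation between arrays was between 0.988 and 0.991, and it was highest for 4 against 22 months. Over the 14736 genes that were well above background on all 4 arrays, the median absolute log2 difference was 0.160 between the 2 earlier ages and 0.188 between the 2 later ages. Across the sides it was 0.213 and 0.203 for the 17-month array and 0.148 and 0.143 for the 22-month array. The array at 17 months therefore stood further from the rest than the array at 22 months did. The x coordinate of the first spot was 337 and 3487 on the earlier arrays and 9785 and 9855 on the later ones. It may reflect where an array lay on its slide, which is not given in the sources used here. Anything tied to this coordinate cannot be told apart from age side. Probes that were spotted 10 times had a median standard deviation between spots of 0.0454 to 0.0594 (log2) where they were well above background and of 0.217 to 0.271 where they were not.

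Most kept genes differed little. The median size of the difference between the later and the earlier mean was 0.27 on the log2 scale (1.20-fold) for higher genes and 0.23 (1.18-fold) for lower genes, against 0.135 over all 14736 genes above background on all 4 arrays. The values just inside and just outside the rule lay almost on top of each other: Zfp423, just inside, had 8.16 and 8.29 at the earlier ages and 8.29 and 8.30 at the later ages, whereas 1700027J07Rik, just outside, had 6.01 and 6.11 against 6.01 and 5.83. A full order with age, from 1.5 to 22 months, was seen in 580 of the higher genes (18.6%) and 470 of the lower genes (19.5%). The rule leaves the order within a side free, so some kept genes fall in full order whether or not their signal follows age.

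Far fewer genes were separated by a wide margin. In the following, the gap is the smallest difference between any later and any earlier array. A gap of at least 1.5-fold was found in 95 higher genes (0.455% of all genes) and 51 lower genes (0.244%), and a gap of at least 2-fold in 20 higher (0.0958%) and 17 lower genes (0.0815%). Leaving out choroid plexus genes gave 91 higher genes at 1.5-fold and 19 at 2-fold. Of the genes with a 2-fold gap, 13 higher and 13 lower genes were not well above background on either array of the dimmer side, and 4 in each direction were above it on all 4 arrays. Among the 14736 genes above background on all 4 arrays, the 1.5-fold gap was found in 51 higher (0.346%) and 25 lower genes (0.17%) and the 2-fold gap in 0.0271% in each direction. With normexp background correction, which shrinks differences of dim probes, the counts at 2-fold were 0 higher and 1 lower.

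**Figure D1:**
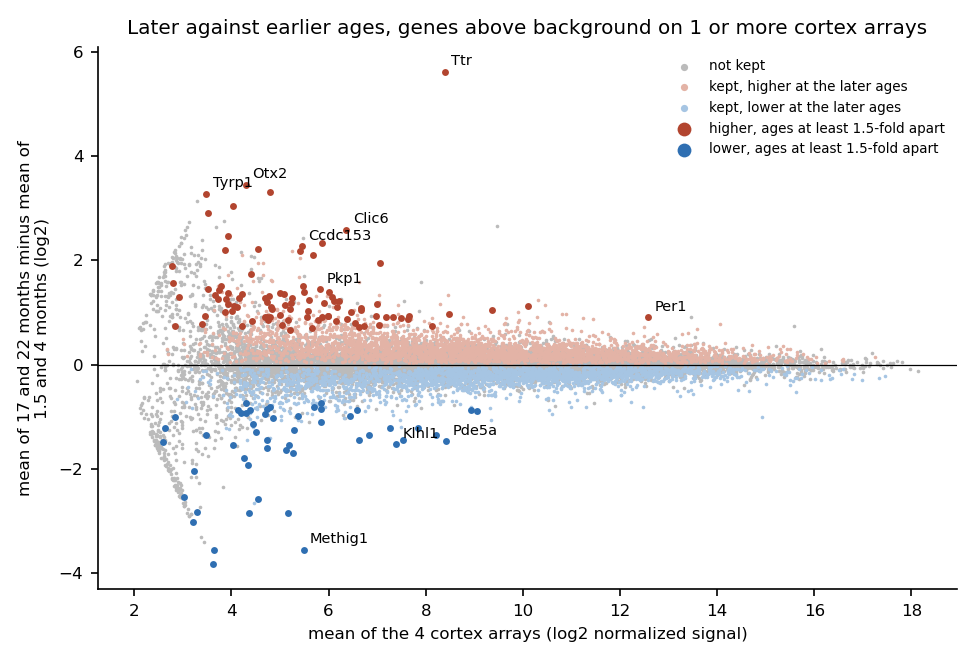
Each point is a gene that was above background on at least 1 cortex array, with the mean of the 4 arrays (log2 normalized signal) on the x axis and the later mean minus the earlier mean (log2) on the y axis. Pale points were kept by the rule, strong red (95 genes) and strong blue (51 genes) points had a gap of at least 1.5-fold, and grey points were not kept. Wide differences were mostly those of dim genes, and Per1 was the brightest of the genes with a wide gap.

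Among genes above background on all 4 arrays, the 12 with the widest gap upwards included cell junction, cilia, immune, and clock genes, and 1 of the 12 has only a clone name. Pkp1, which encodes a plaque protein of desmosomes, had a log2 signal of 4.95 and 5.25 at the earlier ages and 6.63 and 6.47 at the later ages, a 2.74-fold difference of the means. Spag6, of the central apparatus of motile cilia, had 6.49 and 6.34 against 7.64 and 7.496 (2.23-fold). Per1, a transcriptional repressor of the circadian clock, had 12.14 and 12.09 against 12.997 and 13.08 (1.89-fold). Within each side the values of Per1 were closest together, and those of Pkp1 at the earlier ages were furthest apart. That the sides do not overlap follows from the rule.

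Dtx3l, a ubiquitin ligase of the interferon response, had 5.42 and 5.41 against 6.36 and 6.30, as the mean of 2 probes of which the brighter differed by 0.43 only. Cd209a, a lectin of dendritic cells and macrophages, had 3.56 and 3.48 against 4.64 and 4.95, and its brighter probe differed by 2.01. Loxhd1, a gene of hair cell stereocilia, had 3.35 and 3.34 against 4.66 and 4.35, but its brightest probe of 3 differed by 0.02, so the gap is that of dim probes. The other members of this group were Cercam, Clic6, Bpifb1, Eps8l1, and Cdhr1. Their differences were between 1.04 for Cdhr1, a cadherin of photoreceptors, and 2.59 for Clic6, a chloride channel gene of the choroid plexus. Clic6 had the least even values, described with the choroid plexus genes. With normexp, the difference of Pkp1 was 0.63 and that of Per1 was 0.86, so the bright gene lost less.

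In the lower direction, Pde5a, which encodes the phosphodiesterase that degrades cyclic GMP, had the widest gap among genes above background on all 4 arrays. Its signal was 9.30 and 9.003 at the earlier ages and 7.66 and 7.70 at the later ages, 2.77-fold lower. On the hippocampus arrays of NCSTN and MAPT transgenic mice it was 7.70 and 7.85, close to the later cortex arrays, whereas the 6 others lay between 8.79 and 9.86, near or above the earlier ones. Klhl1, an actin-binding protein of neurons, had 7.94 and 8.35 against 6.43 and 6.82 (2.87-fold lower), and the 8 hippocampus arrays lay between 6.83 and 7.81, all between the sides.

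Slc49a4, a transporter of the lysosomal membrane, had 9.38 and 9.33 against 8.43 and 8.55 (1.82-fold lower). Gzma, a protease of cytotoxic lymphocytes, had 6.33 and 6.46 against 5.52 and 5.06, and Colq, the collagen tail that anchors acetylcholinesterase, had 6.09 and 6.13 against 5.33 and 5.25. In Slc49a4 and Colq each side was even, and in Gzma the later arrays were further apart. The rest of the 12 were Fuca1, Nxpe3, Rgsl1, Zfp219, Kcng4, and 2 genes with clone or predicted names. Fuca1, a lysosomal fucosidase, differed by -1.22 as the mean of 2 probes, but its brighter probe differed by 0.07, so the probes disagree. The same holds in part for Nxpe3, with a mean of -1.34 and -0.08 for its brighter probe.

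**Figure D2:**
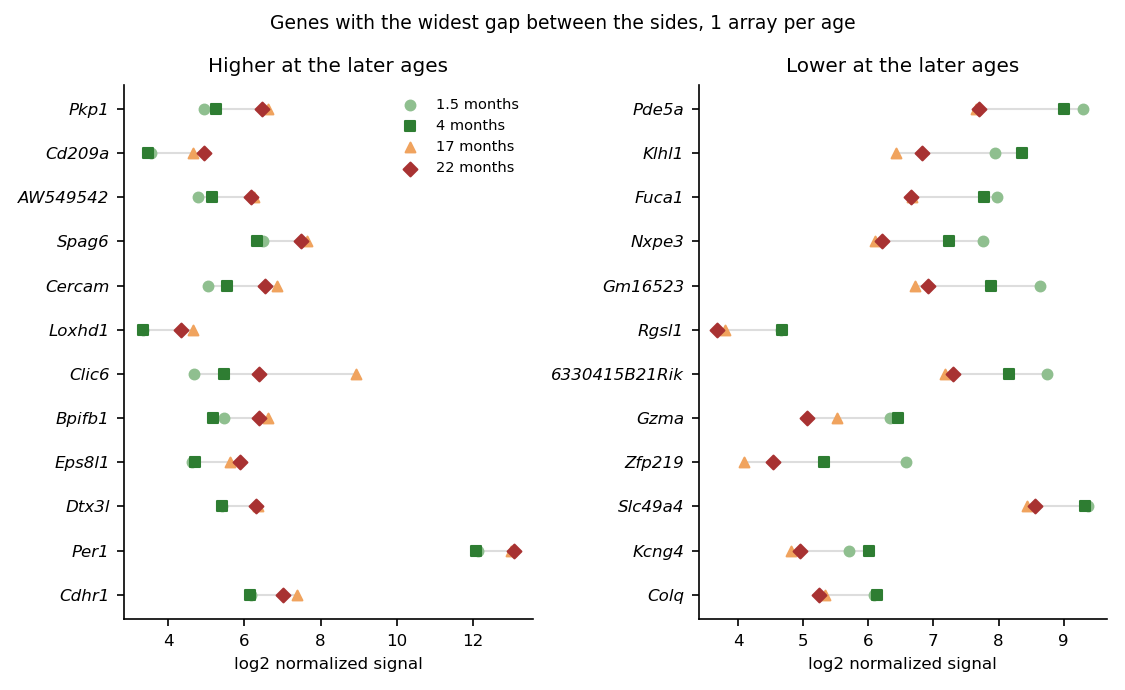
Log2 normalized signal (x axis) of the 12 genes with the widest gap in each direction among genes above background on all 4 arrays, with 1 point for each age. The sides do not overlap in any of them, as the rule requires, and Clic6 is set apart by its value of 8.94 at 17 months.

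A gene that was not well above background on either dim array has only a bound. It sets the mean of the brighter side against a mean floor of the dim side, where the floor of an array is the dimmest of its probes marked as above background, or the gene itself where it was brighter than that. Among lower genes the largest bound was that of Methig1, a methyltransferase gene, with 7.31 and 7.21 at the earlier ages and 3.97 and 3.45 at the later ages, at least 8.40-fold lower. Higd1c, which lies within Methig1 in the mouse assembly GRCm38.p6 and was chosen after its values were seen, had a mean of 5.42 at the earlier ages and 1.86 at the later ages (at least 2.36-fold lower). On the NCSTN and MAPT arrays Methig1 was 3.56 and 2.93 and Higd1c was 1.82 and 1.99, as at the later ages. The substrain of the aged mice is not given in the sources used here, and for Methig1, Higd1c, and Pde5a a difference of substrain or colony between the mice of the earlier and the later ages cannot be told apart from age. Mup21, a lipocalin of a family with near-identical copies, was at least 3.10-fold lower, and Nkx2-5, a homeobox factor of the heart, at least 3.01-fold lower.

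Among higher genes the largest bounds were those of Otx2, a homeobox factor of the choroid plexus (at least 3.60-fold), Ano5, a membrane protein of the anoctamin family (at least 2.82-fold), and Smim22 (at least 2.62-fold). Ano5 had 3.25 and 3.62 against 5.49 and 5.84, even on both sides. Smim22 had 4.38 and 3.70 against 6.71 and 4.58, so its bound rests mostly on the 17-month array. Tyrp1, an enzyme of melanin synthesis, had 1.83 and 1.85 against 4.31 and 5.93 (at least 1.94-fold higher).

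Choroid plexus genes stood far above the other lists at 17 months. Of 32 measured genes of the list, 9 were kept as higher (28.1%) and 0 as lower. Over all genes measured these shares were 14.9% and 11.5%, and over genes above background on all 4 arrays 20.2% and 15.8%. The lists below are set beside the same shares. The median difference of the plexus list was 0.76, against 0.01 over all genes. With normexp the median was 0.30. The array at 17 months had 29 of the 32 above both earlier arrays, with a median of 1.43 above the earlier mean. At 22 months 14 of the 32 were above both earlier arrays, with a median of 0.05, against 36.5% of all genes above both at that age. The median difference of the list without the 17-month array was thus 0.05, with 10 higher and 6 lower genes.

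Ttr, the transthyretin that the plexus secretes, had 5.11 and 6.06 at the earlier ages, 15.57 at 17 months, and 6.85 at 22 months. Otx2 had 1.76, 3.38, 7.62, and 4.42, and the water channel gene Aqp1 had 3.92, 4.72, 7.64, and 5.36. In each of these genes the 22-month value was nearer to the earlier ages than to 17 months. Kl, which encodes klotho, Sostdc1, Krt18, Col8a2, and Ace, the angiotensin-converting enzyme, were kept too, each with its highest value at 17 months. Kcne2, a potassium channel subunit of the plexus, was not kept, with 7.76 at 17 months and at most 2.80 on the other 3 arrays, where it was not above background. Folr1, the folate receptor of the plexus, was above background on 1 cortex array only. Krt8 and Slco1a5 of the list were above background on none. The part of choroid plexus tissue in other differences of the 17-month array was not tested.

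Genes of motile cilia, which ependymal cells carry along the ventricles, were the next list by its median. Of 22 measured, 9 were higher (40.9%) and 0 lower, with a median difference of 0.30. Over genes above background on all 4 arrays, as 14 of the 22 were, the shares were 20.2% and 15.8%. Unlike the choroid plexus list, this list had its higher median at 22 months, 0.39 above the earlier mean, and 0.21 at 17 months. Ccdc153 had 4.66 and 3.98 against 5.33 and 7.86. Dnah6, a dynein heavy chain of the axoneme, had 5.02 and 4.50 against 5.52 and 5.58 (1.73-fold). Ccdc153 was carried by the array at 22 months, and Dnah6 was even at both later ages.

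Enkur, Rsph1, Rsph4a, Spag6l, Tekt1, Cfap126, and Dnah5 were kept with differences between 0.29 and 0.40. Foxj1, the master regulator of motile cilia, was not kept, with 7.22 and 7.51 against 7.42 and 7.32. Tmem212 was above background at 22 months only, with 5.93, and it was at most 1.86 on the other arrays. The median of the list was 0.21 without the 22-month array.

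**Figure D3:**
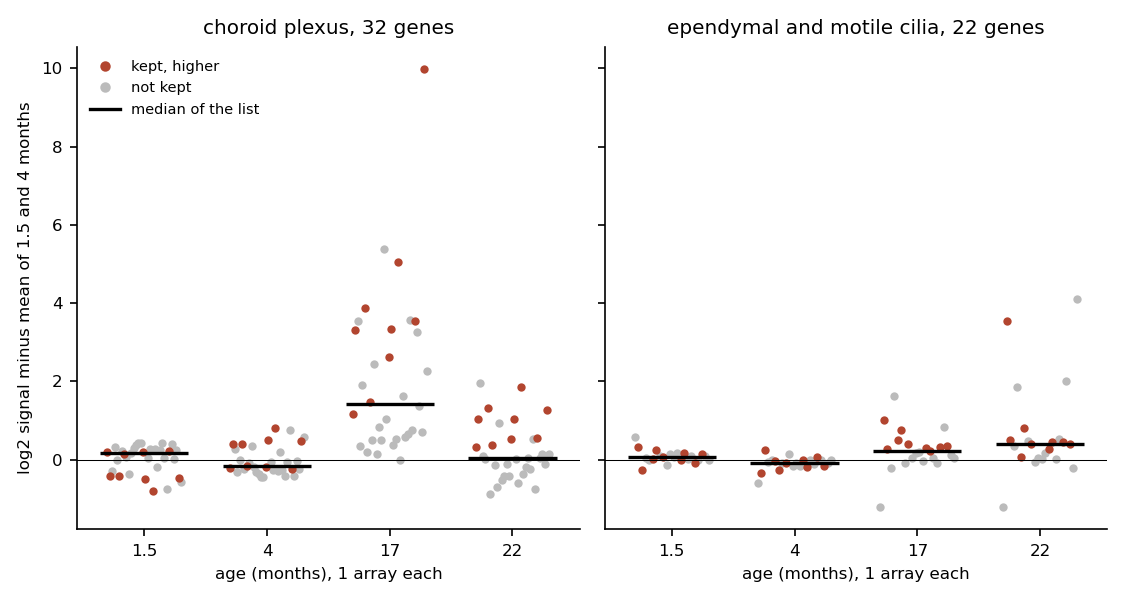
Log2 signal minus the mean of 1.5 and 4 months (y axis) at each age (x axis) for every measured gene of the choroid plexus list (left) and the ependymal and motile cilia list (right). Points are genes in the same order at each age, red where kept, and bars are list medians, 1.43 at 17 months and 0.05 at 22 months on the left, and 0.21 and 0.39 on the right.

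Promoters of cilia genes often hold an X-box, the site of RFX factors, and the stretch of Dnah6 is shown because it is the only kept member of the list with a match. The letters GTTGC, any 3 bases, G, any 1 base, and AAC, in that order, were searched on both strands of the 250 bases before each start in RefSeq promoters of GRCm38.p6. A match was found in 0.591% of all 32851 promoters and in 1 of 7 kept members with a promoter in the table, and also in 2 of 12 members that were not kept, Dynlrb2 and Tekt4. The stretch below runs from base 120 to base 1 before the start, on the minus strand of chr6:73221632-73221751, with the match in capitals.
Dnah6: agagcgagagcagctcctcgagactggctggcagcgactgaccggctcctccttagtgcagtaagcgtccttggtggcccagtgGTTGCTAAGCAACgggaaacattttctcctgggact

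Of 25 genes of cholesterol synthesis, 12 were higher (48.0%) and 0 lower, with a median difference of 0.19. This was the largest share of higher genes among the lists here, but with 75th percentile scaling or normexp 9 were higher, a smaller share than that of resting microglia. All 25 were above background on all 4 arrays, and of all such genes 20.2% were higher and 15.8% lower. Insig1, which holds back the sterol-sensing complex and is itself induced when sterols are low, had 8.22 and 8.69 against 9.15 and 9.33 (1.73-fold). It was in full order with age, and its values at 1.5 and 4 months were further apart than those at 17 and 22 months.

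Among the enzymes, Mvd, the decarboxylase of mevalonate diphosphate, had 10.00 and 10.06 against 10.42 and 10.66 (1.42-fold). Acat2, Dhcr7, Fdft1, Cyp51, Hsd17b7, Pmvk, and Sqle were kept with differences between 0.13 and 0.37. Of the 25 genes, 22 lay above both earlier arrays at 22 months and 13 did so at 17 months, where 9 lay below both. The pathway was thus higher as a whole at 22 months, with a median of 0.33 above the earlier mean, and not at 17 months, with 0.04. Without the 22-month array 13 members would be higher and 9 lower, with that median of 0.04. A sterol regulatory element, with the letters TCAC, any 1 base, and CCAC, was searched in the promoters in the same way as the X-box. It occurred in 1.05% of all promoters and in 0 of 7 higher members with a promoter in the table. Of 10 members that were not kept, 1 had it, Hmgcs1.

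Of 28 measured genes of activated microglia, 11 were higher (39.3%, against 20.2% of all genes above background on all 4 arrays) and 3 lower (10.7%, against 15.8%), with a median difference of 0.15 that was between 0.06 and 0.11 with any 1 array left out. Of 26 genes of resting microglia, 11 were higher (42.3%) and 2 lower, with a median of 0.08. With normexp the activated list had 8 higher and 4 lower genes and a median of 0.08. Gpnmb, a glycoprotein of phagocytes laden with lipid, had 5.56 and 5.47 against 6.24 and 6.67 (1.92-fold). Cst7, an inhibitor of cathepsins that marks activated microglia, had 3.84 and 4.67 against 5.32 and 5.40, and was above background on 3 of the arrays. Lgals3, a lectin of activated microglia, had 6.31 and 6.30 against 6.74 and 7.04 (1.50-fold).

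Cybb, a subunit of the phagocyte oxidase, was not above background at the earlier ages and was at least 1.23-fold higher. Itgax, Cd52, Csf1, Lgals3bp, Axl, Tlr2, and Cd63 were kept too, the last 3 with differences of 0.05 to 0.14. Fabp5, Lyz1, and Lyz2 were lower. Lyz1 and Lyz2 are near-identical copies, and Lyz2 had 6.82 and 6.44 against 5.54 and 6.36, so the array at 17 months set its difference. Of resting genes, Tmem119 had 10.70 and 10.31 against 11.08 and 10.89, Trem2, a lipid receptor, had 11.45 and 11.53 against 11.74 and 11.97, and Sall1, a factor of microglial identity, had 7.41 and 7.36 against 8.07 and 7.76. Cd53 and Ptprc were lower by 0.20 and 0.27. Aif1, a common microglial marker that was chosen after its values were seen, was not kept, with 11.37 and 11.45 against 11.27 and 11.65. The marker genes Csf1r and Cx3cr1 were not kept either, with differences of -0.23 and -0.07. Neither were the activated genes Ccl3, Ctsd, and Ctsb, with -0.56, -0.20, and -0.14. In all, 14 of the 28 activated and 13 of the 26 resting genes were not kept. The difference was above 0 in 18 activated and 16 resting genes.

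**Figure D4:**
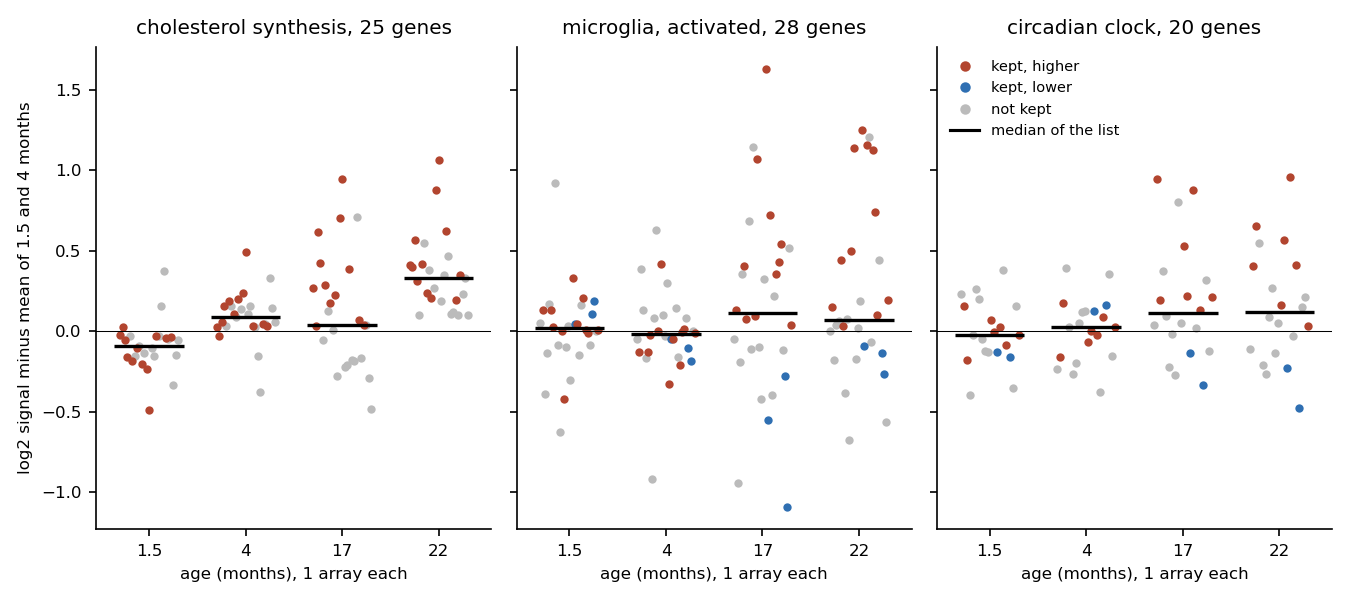
Log2 signal minus the mean of 1.5 and 4 months (y axis) at each age (x axis) for the measured genes of cholesterol synthesis, activated microglia, and the circadian clock. Red and blue points were kept as higher and lower, grey points were not kept, and bars are list medians. The cholesterol median was 0.04 at 17 months and 0.33 at 22 months, and the activated microglia median was 0.11 and 0.07.

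Of 25 complement genes, 6 were higher (24%) and 3 lower (12%), with a median of -0.01. Both shares are near the 20.2% and 15.8% of all genes above background on all 4 arrays. C4b, the component that tags synapses and debris in the classical pathway, had 10.57 and 10.22 against 11.15 and 11.60 (1.97-fold), and it was the bright gene of the list with the widest gap. C1qa and C1qc were kept with differences of 0.08 and 0.24, Itgb2, a chain of complement receptors, with 0.59, and Cfb and Cd59a with 0.94 and 0.45. The inhibitor genes Cd55 and Cr1l were lower by 0.61 and 0.28. C3 was not kept, with 7.64 and 7.51 against 7.54 and 7.69.

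Astrocyte genes were split, with 5 higher (17.9%) and 4 lower (14.3%) of 28 and a median of -0.08. These shares are near the 20.2% and 15.8% of all genes above background on all 4 arrays. Gfap, the filament protein of reactive astrocytes, was not kept, with 9.61 and 9.23 at the earlier ages and 9.41 and 9.33 at the later ages. The gap junction genes Gja1, with 9.82 and 9.64 against 9.36 and 9.30, and Gjb6, with 13.04 and 12.94 against 12.76 and 12.53, were lower. Osmr, a cytokine receptor, was higher by 0.22.

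Of 54 interferon response genes, 13 were higher (24.1%) and 4 lower, with a median of 0.09. The share of higher genes is near the 20.2% of all genes above background on all 4 arrays. Oas2, a sensor of double-stranded RNA, had 5.54 and 5.59 against 6.88 and 6.05 (1.87-fold). Ifi27l2a had 9.002 and 9.46 against 10.12 and 9.94 (1.74-fold), and Cxcl10, a chemokine that draws T cells, had 5.55 and 6.45 against 7.43 and 6.68 (2.08-fold). All 3 were highest at 17 months. The transcription factor genes Stat2, Irf8, and Irf9 were kept with differences of 0.23 to 0.29. The GTPase genes Iigp1, Gbp2, and Gbp6 were lower by 0.54, 0.31, and 0.31. Without the 17-month array 15 were higher and 16 lower with a median of -0.02, and without the 1.5-month array 13 were higher and 17 lower with a median of -0.03.

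The promoter of Cxcl10 is shown because this gene had the largest difference among kept members with an interferon-stimulated response element. The letters GAAA, any 2 bases, and GAAA again, on both strands of the 250 bases before the start, occurred in 2.98% of all promoters and in 3.46% of all genes with one. They were found in 4 of 9 higher members with a promoter in the table (Bst2, Cxcl10, Ifit3b, and Stat2), in 1 of 2 lower members (Gbp2), and in 14 of 29 members that were not kept. The stretch runs from base 250 to base 131 before the start, on the minus strand of chr5:92349020-92349139, with the match in capitals.
Cxcl10: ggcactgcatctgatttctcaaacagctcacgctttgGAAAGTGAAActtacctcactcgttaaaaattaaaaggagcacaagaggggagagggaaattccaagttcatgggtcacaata

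Of 28 genes of MHC class I and peptide loading, 6 were higher (21.4%) and 1 lower, with a median of 0.02. The share of higher genes is near the 20.2% of all genes above background on all 4 arrays. The immunoproteasome genes Psmb8 and Psmb9 and the activator Psme1 were higher by 0.31, 0.14, and 0.31, and the loading factors Tapbp and Tapbpl by 0.28 and 0.19. H2-Q4, of a family of close copies, had 15.60 and 15.27 against 14.81 and 14.05, 2.002-fold lower. Of 11 MHC class II genes, only H2-DMb1 was kept, and the list was higher at 1.5 and 17 months than at 4 and 22 months.

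Jchain, which joins antibody chains in plasma cells, had 4.57 and 4.47 against 5.35 and 5.62 (1.95-fold). It was the only higher gene among 15 B cell and plasma cell genes, and Xbp1 and Derl3 of that list were lower. Of 28 genes of T and natural killer cells, Cd28 was higher and Gzma and Gzmk were lower. Relatives of Cd209a were chosen after their values were seen. Cd209d had 6.31 and 6.21 against 6.97 and 7.01, Cd209f had 7.17 and 6.90 against 7.85 and 8.01, and Cd209g was at least 1.66-fold higher. Cd209b and Cd209c were above background on no cortex array. These lectins are close copies, and the macrophage receptor gene Mrc1 was lower, with 8.67 and 8.05 against 8.002 and 7.60.

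Of 20 circadian clock genes, 7 were higher (35%) and 2 lower (10%), against 20.2% and 15.8% of all genes above background on all 4 arrays. The median of 0.09 was between 0.11 and 0.19 with any 1 array left out. Per1 was given above. Bhlhe40, a repressor in the clock loop, had 10.83 and 10.51 against 11.62 and 11.07 (1.596-fold), and Nr1d1, the nuclear receptor that represses Bmal1, had 9.36 and 9.37 against 9.59 and 9.94. Bhlhe41, Npas2, Per3, and Usp2 were higher by 0.12 to 0.42, and Rora and Nr1d2 were lower by 0.40 and 0.18. Members that share the repressor role were thus on both sides, Per1 and Nr1d1 above and Nr1d2 below. The hour at which tissue was taken is not given in the sources used here.

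Per1 is transcribed from promoters with E-boxes, the sites of the Clock and Bmal1 factors, and its stretch is shown because it was the brightest gene with a wide gap. The letters CACGTG, which are their own reverse complement, occurred in the 250 bases before the start in 6.02% of all promoters and 6.86% of all genes with one. They were found in 2 of 6 higher members with a promoter in the table (Bhlhe41 and Per1), in 0 of 2 lower members, and in 3 of 9 that were not kept (Ciart, Cry1, and Tef). The stretch runs from base 223 to base 104 before the start, on the plus strand of chr11:69098726-69098845.
Per1: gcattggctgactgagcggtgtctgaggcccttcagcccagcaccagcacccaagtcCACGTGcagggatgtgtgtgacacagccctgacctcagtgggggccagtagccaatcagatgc

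Immediate early genes, which neurons induce with activity, were split 6 to 6 (18.8% each) among 32 measured, Per1 included. Their median of 0.17 was -0.06 without the 17-month array and -0.01 without the 1.5-month array. The orphan receptor genes Nr4a1, with 12.99 and 13.49 against 13.97 and 13.88, and Nr4a2, with 9.24 and 9.74 against 10.39 and 10.33, were higher, the second by 1.82-fold. Egr1, with 14.01 and 13.55 against 13.20 and 13.24, Egr2, and Egr4 were lower, and Npas4 was lower mostly through the 22-month array, with 10.90 and 11.25 against 10.74 and 9.53. Egr3, of the same family, was not kept, with 4.99 and 4.79 against 5.65 and 4.601.

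Of 28 heat shock and endoplasmic reticulum chaperone genes, 9 were lower (32.1%) and 2 higher, with a median of -0.04. Of all genes above background on all 4 arrays 15.8% were lower. With 75th percentile scaling 6 were lower and 4 higher. Xbp1, the factor of the unfolded protein response, had 13.67 and 13.60 against 13.22 and 13.37, and Pdia6, a disulfide isomerase, had 12.48 and 12.43 against 12.20 and 12.16. Manf, Creld2, Ddit3, Trib3, Hspa8, Hspd1, and Hspe1 were lower by 0.11 to 0.43. Hspa1a, the inducible heat shock protein, was higher, with 8.25 and 8.31 against 9.22 and 8.72, as was Hyou1. Without the 22-month array 11 were higher and 10 lower, with a median of 0.02.

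Of 66 cytosolic ribosomal protein genes, 16 were higher (24.2%) and 3 lower, and of 74 oxidative phosphorylation genes 5 were higher and 11 lower (14.9%). The medians were 0.04 and -0.03. Neither split was stable. With 75th percentile scaling the counts were 27 higher and 1 lower for ribosomal protein genes and 15 and 1 for oxidative phosphorylation genes, whose median turned to 0.02. Without the 17-month array they were 46 and 3 and 28 and 15, and without the 22-month array 23 and 28 and 14 and 44. The 24.2% of ribosomal protein genes is near the 20.2% of all genes above background on all 4 arrays. Single members differed by small amounts, such as Rps27 with 15.83 and 15.90 against 15.98 and 15.98, and Ndufa10 of complex I with 12.94 and 13.08 against 12.57 and 12.82. Ribosomal protein genes have many near-identical pseudogenes, so their values are uncertain.

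Neuronal lists had members on both sides and medians close to that of all genes. Synaptic vesicle genes had 8 higher (25%) and 4 lower (12.5%) of 32, with a median of 0.01. Glutamate and GABA receptor genes had 8 and 8 of 36 (22.2% each), with a median of 0.02. Cortical projection neuron genes had 2 (7.7%) and 4 (15.4%) of 26, with a median of -0.00. Of all genes above background on all 4 arrays 20.2% were higher and 15.8% lower. Gria2, an AMPA receptor subunit, had 9.77 and 9.33 against 9.16 and 8.95, and the GABA receptor gene Gabra2 had 10.68 and 10.44 against 10.12 and 10.02. Slc17a7, the vesicular glutamate transporter, was higher by 0.22.

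Interneuron genes had 9 higher (30%) and 1 lower of 30, with a median of 0.08. Over genes above background on all 4 arrays 20.2% were higher and 15.8% lower. Nos1, the neuronal nitric oxide synthase of a class of interneurons, had 5.23 and 4.95 against 6.09 and 5.93 (1.89-fold), and Gad2, which makes GABA, had 12.20 and 12.21 against 12.54 and 12.34. Of 24 genes of the striatum, 7 were higher (29.2%) and 1 lower (median 0.17). Serpina9 led that list with 5.92 and 6.32 against 7.01 and 7.39, whereas Drd2 was not kept. Of 24 hippocampal genes 6 were higher (25%) and 0 lower (median 0.15). Of 27 genes of thalamus and hypothalamus 9 were higher (33.3%) and 4 lower (14.8%, median 0.13). Avp, the vasopressin precursor of the hypothalamus, had 4.94 and 4.63 against 6.77 and 5.60. The part of neighbouring regions in these differences was not tested.

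Genes of immature neurons were on both sides, 7 higher (21.9%) and 5 lower (15.6%) of 32. These shares are near the 20.2% and 15.8% of all genes above background on all 4 arrays. Dcx, the microtubule protein of migrating neurons, was lower by 0.24 and Nrep by 0.88, with 11.21 and 10.73 against 9.94 and 10.24. Dlx5, Nnat, Tubb3, and Tubb5 were higher. Of 18 oligodendrocyte precursor genes 3 were higher and 3 lower (16.7% each), also near those shares. Gpr17, of precursors about to mature, had 12.13 and 11.29 against 10.56 and 11.25, whereas Cspg4 was higher by 0.41. Of 35 clustered protocadherin genes, which give neurons their surface identity, 8 were higher and 9 lower. In either direction 26.5% of all genes were kept, and 35.9% of genes above background on all 4 arrays, as 29 of the 35 were. Pcdhgb1 had 6.91 and 6.28 against 5.75 and 5.67, and Pcdhb11 had 4.42 and 4.79 against 5.12 and 5.25.

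Lists of other cell types followed single arrays more than age. Of 32 myelin genes 0 were higher and 1 was lower, Gsn. Their median, centred per gene on the 4 arrays, was -0.45, 0.52, -0.24, and 0.23 at 1.5, 4, 17, and 22 months. Genes of meningeal and perivascular fibroblasts had the opposite sign at each age, with 0.24, -0.17, 0.20, and -0.29. Myelin genes were thus high and fibroblast genes low on the arrays at 4 and 22 months.

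Of 25 fibroblast genes 0 were higher and 4 lower (16%). Of all genes above background on all 4 arrays 20.2% were higher and 15.8% lower. The collagen gene Col3a1 had 8.70 and 7.30 against 7.15 and 6.70 and Col1a1 had 9.88 and 8.80 against 8.73 and 8.35, both highest by far at 1.5 months, and Dcn and Lum were lower by 0.52 and 0.36. Of 28 endothelial and pericyte genes 5 were higher (17.9%) and 4 lower (14.3%), near the shares over all such genes. Kcnj8, a potassium channel of pericytes, had 5.33 and 5.92 against 6.34 and 6.49, whereas the pericyte gene Rgs5 had 10.78 and 10.82 against 10.57 and 10.42. Of 16 basement membrane genes Hspg2 and Lama5 were higher.

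Of 24 senescence genes 5 were higher (20.8%) and 1 lower (4.17%). The share of higher genes is near the 20.2% of all genes above background on all 4 arrays, of which 15.8% were lower. Gdf15, a stress cytokine, had 3.53 and 4.34 against 4.50 and 6.18, Trp53 had 6.75 and 6.64 against 8.02 and 6.83, and Cdkn2c was higher by 0.27. The remaining lists had at most 7 kept members each. There were 1 higher and 4 lower of 32 cell cycle genes, 5 and 2 of 30 genes of DNA methylation and chromatin, 3 and 4 of 23 glucocorticoid-responsive genes, 1 and 0 of 13 pituitary genes, and 0 and 0 of 12 red blood cell genes.

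**Figure D5:**
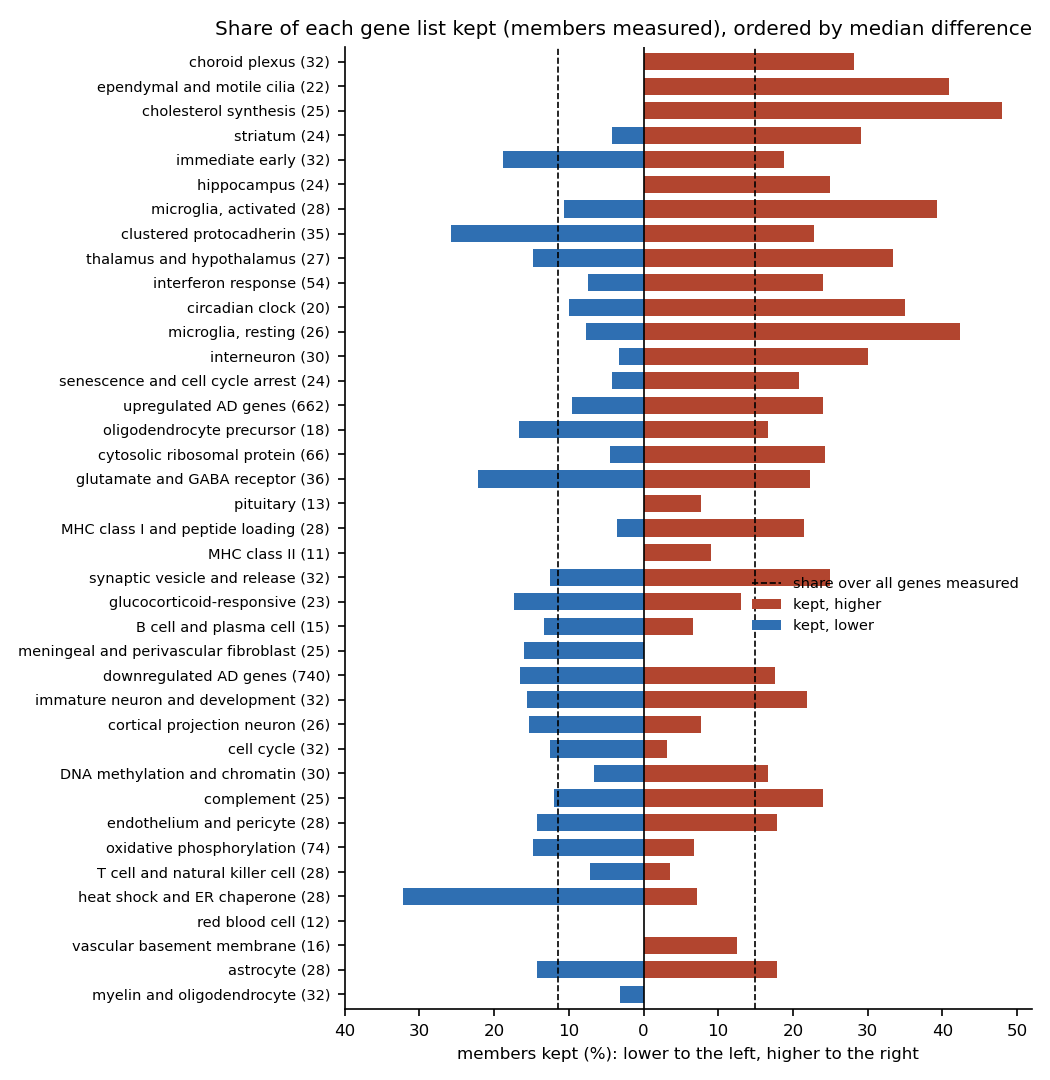
Share of the measured members of each list (number in parentheses) that were kept as lower (blue, to the left) or higher (red, to the right), in percent, ordered by the median difference. Dashed lines are the shares over all genes measured, 11.5% lower and 14.9% higher. Over genes above background on all 4 arrays, not drawn, they were 15.8% and 20.2%. The choroid plexus, cilia, and cholesterol synthesis lists have no member kept as lower. The same holds for the hippocampus, basement membrane, MHC class II, pituitary, and red blood cell lists.

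AD genes, which the study had selected in human brain, were read from a copy with 740 upregulated and 835 downregulated genes, slightly fewer than the study states. Of 662 upregulated AD genes measured, 159 were higher (24.02%) and 63 lower (9.52%), with a median difference of 0.04. Of 740 downregulated AD genes, 130 were higher (17.6%) and 122 lower (16.5%), with a median of -0.00. Both lists hold mostly genes above background on all 4 arrays, for which the shares over all such genes were 20.2% higher and 15.8% lower. Among upregulated AD genes the widest gaps were those of Dtx3l, Tcf7, Chdh, and Mogat1. Tcf7, a factor of Wnt signalling, had 3.78 and 4.47 against 5.25 and 5.61, and Mogat1, an acyltransferase, was lower, with 6.88 and 5.06 against 4.43 and 4.41. Among downregulated AD genes they were those of Tyrp1, Ppl, and Ahi1, all higher, and Nlrp3, an inflammasome gene, which was lower. Ppl, a plakin of cell junctions, had 4.13 and 5.07 against 5.92 and 5.85, and Ahi1, a protein of primary cilia, had 8.62 and 8.62 against 9.27 and 9.18.

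The hippocampus arrays gave a readout that the rule did not use. The 5xFAD transgenic mouse is a model that forms amyloid plaques. In 5xFAD minus the mean of the NCSTN and MAPT transgenic arrays, 40.1% of higher genes and 44.4% of lower genes were above 0, against 43.5% of all genes. Among genes with a gap of at least 1.5-fold the shares were 51.6% of 95 higher and 56.9% of 51 lower genes. Higher genes were thus not above 0 more often than lower genes. A 2-fold increase in 5xFAD was seen in 15.8% of those 95 higher genes and in 25.5% of the 51 lower genes, against 5.79% of all genes, and a 2-fold decrease in 8.42% and 3.92%, against 4.52% of all genes. Of the 95 higher and 51 lower genes, 51 and 25 were above background on all 4 cortex arrays, so all genes are an unlike reference. Pde5a and Methig1, of the lower genes, were low on the NCSTN and MAPT arrays that are subtracted here, as given above. The part of this in the shares was not tested. These models are all labelled C57BL/6, differ in transgene and age, and have 1 array each.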

How the data were processed

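Per the labels and the methods of the study, RNA of 3 animals per age was pooled in equal amounts, amplified, and hybridized to Agilent Mouse Whole Genome 44K arrays. Spot intensities, not normalized between arrays, were deposited by the authors in the form the scanner software wrote, with a matrix of processed intensity values that served here as an alternative. The processed signals were put on a log2 scale, control and outlier spots were left out (180 to 234 outlier spots per cortex array), spots of 1 probe were averaged, and 39369 probes were quantile normalized over 12 arrays (4 cortex and 8 hippocampus). Unversioned accessions matched a symbol in RefSeq of GRCm38.p6 for 27508 of 39429 probes (69.8%), and probes of a gene were averaged. A gene was above background on an array if at least 1 of its probes was. A gap is the smallest log2 difference between any later and any earlier array. The depth of an array is its signal over background, and between 66.1% and 67.0% of probes were well above background on the cortex arrays.

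Named genes were the 12 with the widest gap per direction among genes above background on all 4 cortex arrays, the 4 with the largest bound per direction among genes below it on both dim arrays, up to 4 kept genes with the widest gap per list, choroid plexus genes with a 2-fold gap, and tissue markers. Genes without a descriptive symbol were only counted, and some genes are not reported here. Other members of the lists were named to account for them. The members, the 37 gene lists, and the rule were chosen with earlier results of these data known. No test was run, since the rule already used the contrast and the ages are not replicates of 1 group. The number of arrays limits the precision, which leaves the spread between animals unknown. Slide and scan date are not given in the sources used here. Alternatives were scaling to the 75th percentile, quantile normalization over the cortex arrays alone, normexp (limma 3.58.1 in R 4.3.3, offset 50, on median signals because mean signals were not used here), the deposited matrix, the brightest probe, a 1.4-fold filter on local background as in the study, other background conditions, outlier spots kept, no choroid plexus genes, and each array left out. Python 3.11.15 with numpy 2.4.6, pandas 2.3.3, and matplotlib 3.10.9 was used, and the code for the rule was tested on simulated data.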

Additional observations from a re-analysis of the deposited data

How the results depend on the processing

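The numbers of genes kept higher and lower stayed within 1.5 times of 3119 and 2407 under all 10 settings that kept the 4 arrays, and 82.1% or more of the genes were also kept in the same direction under each of these settings. Higher genes made up between 55.4% and 57.5% of the kept genes. The 20 higher and 17 lower genes with a 2-fold gap became 0 and 1 with normexp, 82 and 87 with no background condition, and 4 and 4 with the condition on all 4 arrays. Leaving out 1 array loosens the rule by construction, and it gave 5239 to 6042 higher and 4220 to 5411 lower genes, and 58 to 234 higher and 41 to 213 lower genes at 2-fold. Without the 17-month array these were 5799, 4220, 198, and 41. A kept gene cannot turn when 1 array is left out, so that setting says nothing of the stability of single genes. No paired analysis was possible because each group holds 1 array and the replicate number names no shared animal.

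With the brightest probe per gene in place of the mean, the difference turned for Cplx2 (0.023), Fuca1 (0.069), Spint2 (-0.20), and Ube2c (0.11). With 75th percentile scaling, medians turned for the lists of pituitary (-0.025), oxidative phosphorylation (0.021), MHC class II (-0.028), oligodendrocyte precursor (-0.0022), B cell and plasma cell (-0.043), immature neuron (0.014), and downregulated AD genes (0.018). With 1 array left out, the medians ranged from -0.063 to 0.066 for astrocyte genes, from -0.0017 to 0.025 for pituitary genes, and from -0.060 to 0.189 for immediate early genes. Wider ranges were those of myelin (-0.43 to 0.38), MHC class II (-0.36 to 0.54), basement membrane (-0.34 to 0.27), fibroblast (-0.33 to 0.16), red blood cell (-0.26 to 0.35), and glucocorticoid-responsive genes (-0.14 to 0.20). The cause was not tested. Of the 158 kept genes named by the rule and reported here, 118 were kept in the same direction under each of the settings with 4 arrays in which they were measured. Differences of dim genes depend most on background correction, as for Otx2 (1.05 with normexp), Methig1 (-1.47), and Pkp1 (0.63).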
